A study of Mus musculus with 6 samples.

Results

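The insulin-like growth factor (IGF) ligands, their receptors and their binding proteins were followed in microglia sorted from the lumbar spinal cord of SOD1 G93A mice, a model of familial amyotrophic lateral sclerosis, and of WT mice. The members were 9 genes (Igf1, Igf2, Igf1r, Igf2r, Igfbp2, Igfbp3, Igfbp4, Igfbp5 and Igfbp7), taken with every probe set that mapped to 1 of these symbols alone. This gave 27 probe sets of the 45037 on the array that were not Affymetrix controls. The SOD1 G93A mice were males of the high-copy line B6SJL-Tg(SOD1-G93A)1Gur/J, which carries a mutant human SOD1 transgene in addition to mouse Sod1, and the WT mice were male littermates without it. Both groups were 90 days old. Cells were sorted for CD11b after enzymatic dissociation, removal of myelin and exclusion of dead cells, and each array held the RNA of a pool of at least 6 mice. There were 3 arrays per genotype, so the spread between replicates is that between pools, and the transgene was not restricted to microglia.

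IGF-1 and IGF-2 are secreted growth factors that act mainly through the IGF-1 receptor, a tyrosine kinase that signals through insulin receptor substrates, PI3K and AKT, and through RAS and ERK. The IGF-2 receptor, also known as the cation-independent mannose 6-phosphate receptor, removes IGF-2 from the cell surface and sorts lysosomal enzymes. The binding proteins hold the ligands in the extracellular space and set how much of them reaches the receptors. In the central nervous system, microglia are a known source of IGF-1 during development and after injury, and IGF-1 is known as a survival factor for motor neurones and oligodendrocytes.

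The regions upstream of 3 members are shown because the ligand that rose, its receptor, and the binding protein with the most probe sets differ there in base composition. Each sequence is the 250 bases before the annotated RefSeq start in GRCm38.p6, on the plus strand, at chr10:87860861-87861110 for Igf1, chr7:67952007-67952256 for Igf1r and chr11:99040994-99041243 for Igfbp4. Capitals mark matches, on either strand, to the TATA box (TATAAA), the CCAAT box (CCAAT), the GC box (GGGCGG) or the core of PU.1-type ETS sites (GAGGAA). A STAT-type motif (TTCNNNGAA) was also searched. None of these letter strings overlapped another in the windows shown.
Igf1: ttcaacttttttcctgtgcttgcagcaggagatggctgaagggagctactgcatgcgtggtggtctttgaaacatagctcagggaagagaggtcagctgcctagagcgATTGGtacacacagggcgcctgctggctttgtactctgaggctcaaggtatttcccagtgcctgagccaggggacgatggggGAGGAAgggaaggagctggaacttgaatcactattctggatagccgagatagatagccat
Igf1r: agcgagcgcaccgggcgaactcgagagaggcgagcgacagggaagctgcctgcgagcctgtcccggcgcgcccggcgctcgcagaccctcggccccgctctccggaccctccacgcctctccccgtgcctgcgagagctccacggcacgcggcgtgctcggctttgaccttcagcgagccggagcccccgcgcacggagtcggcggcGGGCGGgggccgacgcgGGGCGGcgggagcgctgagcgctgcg
Igfbp4: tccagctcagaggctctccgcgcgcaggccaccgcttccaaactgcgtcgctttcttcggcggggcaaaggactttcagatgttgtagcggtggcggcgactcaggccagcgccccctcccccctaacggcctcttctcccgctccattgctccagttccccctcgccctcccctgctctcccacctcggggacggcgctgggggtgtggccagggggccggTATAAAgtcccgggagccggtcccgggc
The Igf1 window had a GC content of 52.8% and 5 CpG dinucleotides, against medians of 52.4% and 6 over all 32851 windows of this length. The Igf1r window had a GC content of 77.6% and 42 CpG dinucleotides, and that of Igfbp4 had 69.2% and 22. Base composition did not set Igf1 apart from all other members, since a window of Igf2 had 47.6% and that of Igfbp5 had 58.8%. The Igf1 window held 1 CCAAT box and 1 GAGGAA match, which 33.8% and 23.3% of all windows also held. Windows of Igf2 held both motifs as well, and a window of Igfbp2 held GAGGAA. The Igf1r window held 2 GC boxes, found in 32.7% of all windows, and the Igfbp4 window held 1 TATA box, found in 12.4%. The STAT-type motif, present in 7.02% of all windows, was in none of the 13 windows of the 9 members. A match of letters is a description of the window and was not tested for binding.

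Igf1 was the member that rose. All 4 of its probe sets were higher in SOD1 G93A than in WT microglia, by 8.0-fold to 12.6-fold, and each passed the test over the whole array. Values are log2 signals, so a difference of 1 is a doubling. The probe set of highest signal, 1452014_a_at, read 10.03, 10.25 and 10.20 in SOD1 G93A replicates 1 to 3, and 6.16, 6.68 and 6.67 in WT replicates 1 to 3. The SOD1 G93A arrays lay close together and far above every WT array. The means were 10.16 ± 0.12 (SD, n = 3) and 6.50 ± 0.30 (SD, n = 3), a log2 difference of 3.66 (standard error 0.16, 95% confidence interval 3.30 to 4.01) or 12.6-fold (9.87 to 16.1), with an adjusted p of 4.5e-05 from limma. By p-value this probe set stood at rank 3 of the array.

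The other Igf1 probe sets gave further measurements of the gene. For 1437401_at the signals were 9.0, 9.78 and 9.81 in SOD1 G93A and 6.42, 6.45 and 6.34 in WT microglia, a log2 difference of 3.13 (standard error 0.20, adjusted p = 0.00034). SOD1 G93A replicate 1 was the lowest of its group and still stood above all WT arrays. For 1434413_at the signals were 8.40, 9.17 and 8.57 in SOD1 G93A and 5.47, 5.60 and 5.65 in WT microglia, a log2 difference of 3.14 (standard error 0.19, adjusted p = 0.000222). For 1419519_at the signals were 9.51, 9.82 and 8.92 in SOD1 G93A and 6.77, 6.13 and 6.34 in WT microglia, a log2 difference of 3.0 (standard error 0.24, adjusted p = 0.000853). Here replicate 3 was the lowest SOD1 G93A array, so the order of the arrays within a genotype was not shared by the probe sets. Pearson's r between the 4 probe sets ran from 0.957 to 0.991 over the 6 arrays, which fall into 2 groups by genotype, and from -0.50 to 0.62 on deviations from the genotype means. The intervals of all 4 differences lay between 2.46 and 4.01. In such pools of cells, fewer cells of a type and less RNA per cell cannot be told apart, nor can more cells and more RNA per cell.

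**Figure D1:**
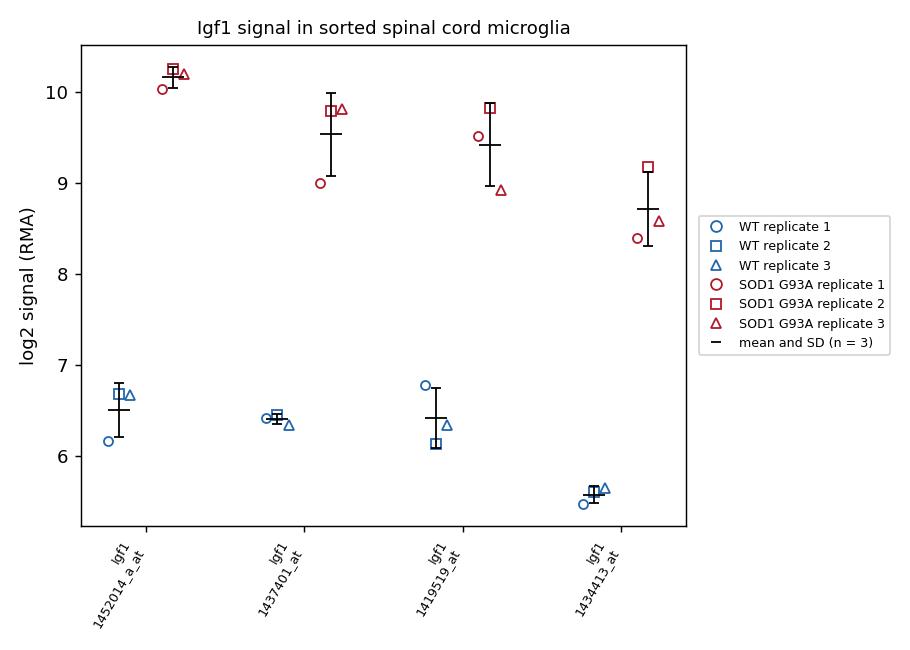
Log2 signal (vertical axis) of the 4 Igf1 probe sets on each array, with SOD1 G93A and WT replicates as points and the mean and SD (n = 3) of each genotype. Every SOD1 G93A point lies above every WT point of its probe set, with signals of 8.40 to 10.25 against 5.47 to 6.77.

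No other member passed the test. Of the 27 probe sets 4 were called, all of Igf1 and all higher, where 2.71% of all probe sets were called higher and 1.93% lower. By unadjusted p, 4 of the 23 other probe sets were under 0.05 (2 of Igf1r, 1 of Igfbp4 and 1 of Igfbp5), against 19.5% of all probe sets. The genotypes did not overlap in 5 probe sets that were higher in SOD1 G93A (4 of Igf1 and 1 of Igfbp5), against 13.4% of all probe sets, and in 4 that were lower (1 each of Igf1r, Igf2, Igfbp4 and Igfbp5), against 11.3%. The median log2 difference of the 23 probe sets other than Igf1 was -0.05, and that of all probe sets was 0.00. Their differences ran from -0.54 to 0.74, and the 95% interval of 20 of the 23 lay within 1 log2 unit of 0. Of all members, 4 probe sets (1 of Igf2, the 1 of Igfbp2 and both of Igfbp3) had a mean log2 signal below 5, taken here as near background. That limit lies below the array medians of 5.93 to 5.97, and background was not estimated. The WT signals of Igf1, at 5.47 to 6.77, lay around those medians, and how far they stood above background was not tested.

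**Figure D2:**
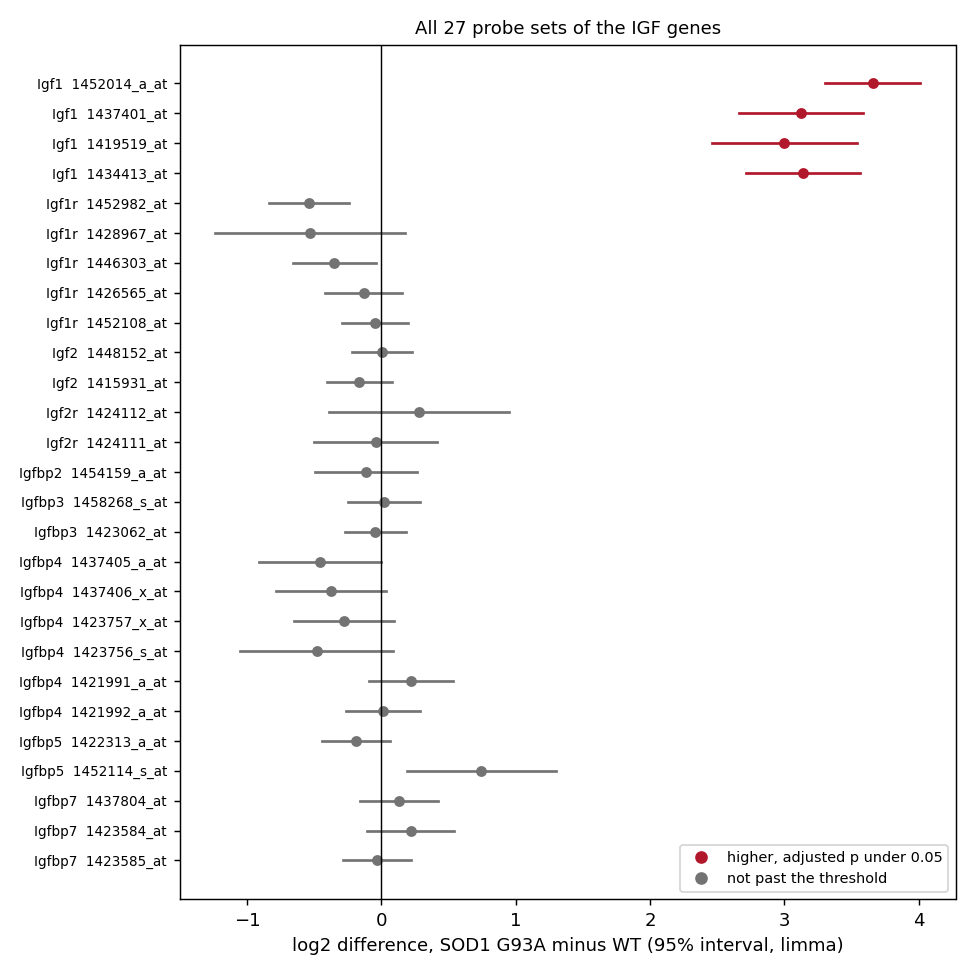
Log2 difference, SOD1 G93A minus WT (horizontal axis), of each of the 27 member probe sets, with 95% confidence intervals from limma. The 4 Igf1 probe sets lie at 3.0 to 3.66, and the other 23 lie between -0.54 and 0.74.

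Igf2, the other ligand, gave no difference that passed. Its probe set 1448152_at read 6.80, 6.77 and 6.71 in SOD1 G93A and 6.73, 6.76 and 6.78 in WT microglia, with an interval of the log2 difference from -0.22 to 0.22 (adjusted p = 0.989). The arrays of both genotypes were interleaved. Its other probe set, 1415931_at, lay near background at 3.75, 3.82 and 3.86 in SOD1 G93A and 3.92, 3.90 and 4.11 in WT microglia (log2 difference -0.16, adjusted p = 0.464). Those groups did not overlap.

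Igf1r, which encodes the receptor for both ligands, was below WT on all 5 of its probe sets, but none passed. The probe set 1452982_at read 7.75, 7.97 and 7.89 in SOD1 G93A and 8.18, 8.53 and 8.53 in WT microglia, with no overlap between genotypes. The log2 difference was -0.54 (standard error 0.13, 95% interval -0.84 to -0.24), with an unadjusted p of 0.00272 and an adjusted p of 0.054. It passed in 8 of 19 alternative analyses, 2 of which were the fit without WT replicate 1 (adjusted p = 0.0228) and that without both arrays numbered 1 (adjusted p = 0.0169). Some of the 8 kept the same difference and adjusted over fewer probe sets. Leaving out any other single array gave an adjusted p of 0.111 to 0.178 from limma, and the probe set did not pass. The probe set 1428967_at, designed on the same transcript sequence, read 6.54, 7.75 and 7.54 in SOD1 G93A and 7.35, 8.14 and 7.93 in WT microglia (log2 difference -0.53, 95% interval -1.24 to 0.18, adjusted p = 0.407). Array 1 was the lowest in each genotype, and without both arrays numbered 1 the difference was -0.39. Leaving out 1 array gave -0.77 (without SOD1 G93A replicate 2) to -0.16 (without SOD1 G93A replicate 1). For 1446303_at the signals were 6.58, 6.60 and 6.88 against 6.84, 7.20 and 7.05 (log2 difference -0.35, adjusted p = 0.196). The remaining probe sets, 1426565_at and 1452108_at, differed by -0.13 and -0.05 and share a target sequence with each other.

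Igf2r, the clearance receptor of IGF-2, did not pass on either probe set. The probe set 1424112_at read 7.25, 7.48 and 7.45 in SOD1 G93A and 6.33, 7.30 and 7.71 in WT microglia, and the WT arrays enclosed all SOD1 G93A arrays. The log2 difference was 0.28 (95% interval -0.39 to 0.95), and -0.11 without WT replicate 1. For 1424111_at the signals were 5.93, 6.62 and 6.13 against 5.93, 6.47 and 6.40, a log2 difference of -0.04 (adjusted p = 0.942).

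Igfbp4, which in general restrains IGF action until it is cleaved by PAPP-A, was measured by 6 probe sets, of which 4 lay below WT and none passed. The probe set 1437405_a_at read 10.36, 11.01 and 10.81 in SOD1 G93A and 11.02, 11.54 and 10.98 in WT microglia, a log2 difference of -0.46 (95% interval -0.91 to -0.00, adjusted p = 0.255). Its partner on the same target sequence, 1437406_x_at, read 9.93, 10.41 and 10.34 against 10.45, 10.94 and 10.42 and did not overlap between genotypes (log2 difference -0.38, adjusted p = 0.297). On both, SOD1 G93A replicate 1 was the lowest array and WT replicate 2 the highest. The difference of 1437405_a_at was -0.27 without the former and -0.28 without the latter, and that of 1437406_x_at was -0.23 and -0.21. Over all fits that left out 1 array they ran from -0.60 to -0.27 and from -0.47 to -0.21. Without both arrays numbered 1 they were -0.35 and -0.30. Another target sequence gave -0.48 for 1423756_s_at (-0.24 without SOD1 G93A replicate 1 or WT replicate 2 in turn) and -0.28 for 1423757_x_at (-0.16 and -0.12). Leaving out 1 array gave -0.66 to -0.24 and -0.36 to -0.12, and leaving out both arrays numbered 1 gave -0.42 and -0.24. The last target sequence gave 0.22 for 1421991_a_at and 0.01 for 1421992_a_at. The 6 probe sets are therefore 3 pairs, and the pairs differed in sign.

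Igfbp5 encodes a binding protein that also attaches to extracellular matrix, and its probe sets pointed in opposite directions. The probe set 1452114_s_at read 6.88, 7.25 and 6.75 in SOD1 G93A and 6.29, 5.66 and 6.69 in WT microglia. The lowest SOD1 G93A array was only just above the highest WT array. The log2 difference was 0.74 (standard error 0.24, 95% interval 0.19 to 1.30), with an unadjusted p of 0.0145 and an adjusted p of 0.131, and without WT replicate 2 it was 0.47. The probe set 1422313_a_at read 7.48, 7.46 and 7.43 against 7.82, 7.54 and 7.58, a log2 difference of -0.19 (adjusted p = 0.407).

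Igfbp7, a secreted protein with low affinity for IGFs that is known from vessels, did not pass on any of 3 probe sets. The signals of 1423584_at were 6.58, 7.07 and 6.75 in SOD1 G93A and 6.44, 6.62 and 6.68 in WT microglia (log2 difference 0.22, adjusted p = 0.462). Those of 1437804_at were 7.28, 7.19 and 7.29 against 7.17, 6.89 and 7.31 (0.13, adjusted p = 0.645), and 1423585_at differed by -0.04. Igfbp2 and Igfbp3, which carry IGFs in cerebrospinal fluid and in blood, lay near background. The Igfbp2 probe set read 4.79, 5.01 and 4.65 against 5.15, 4.58 and 5.06, and the Igfbp3 probe sets lay between 2.88 and 3.87 on every array. None of these probe sets passed (adjusted p from 0.78 to 0.958).

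**Figure D3:**
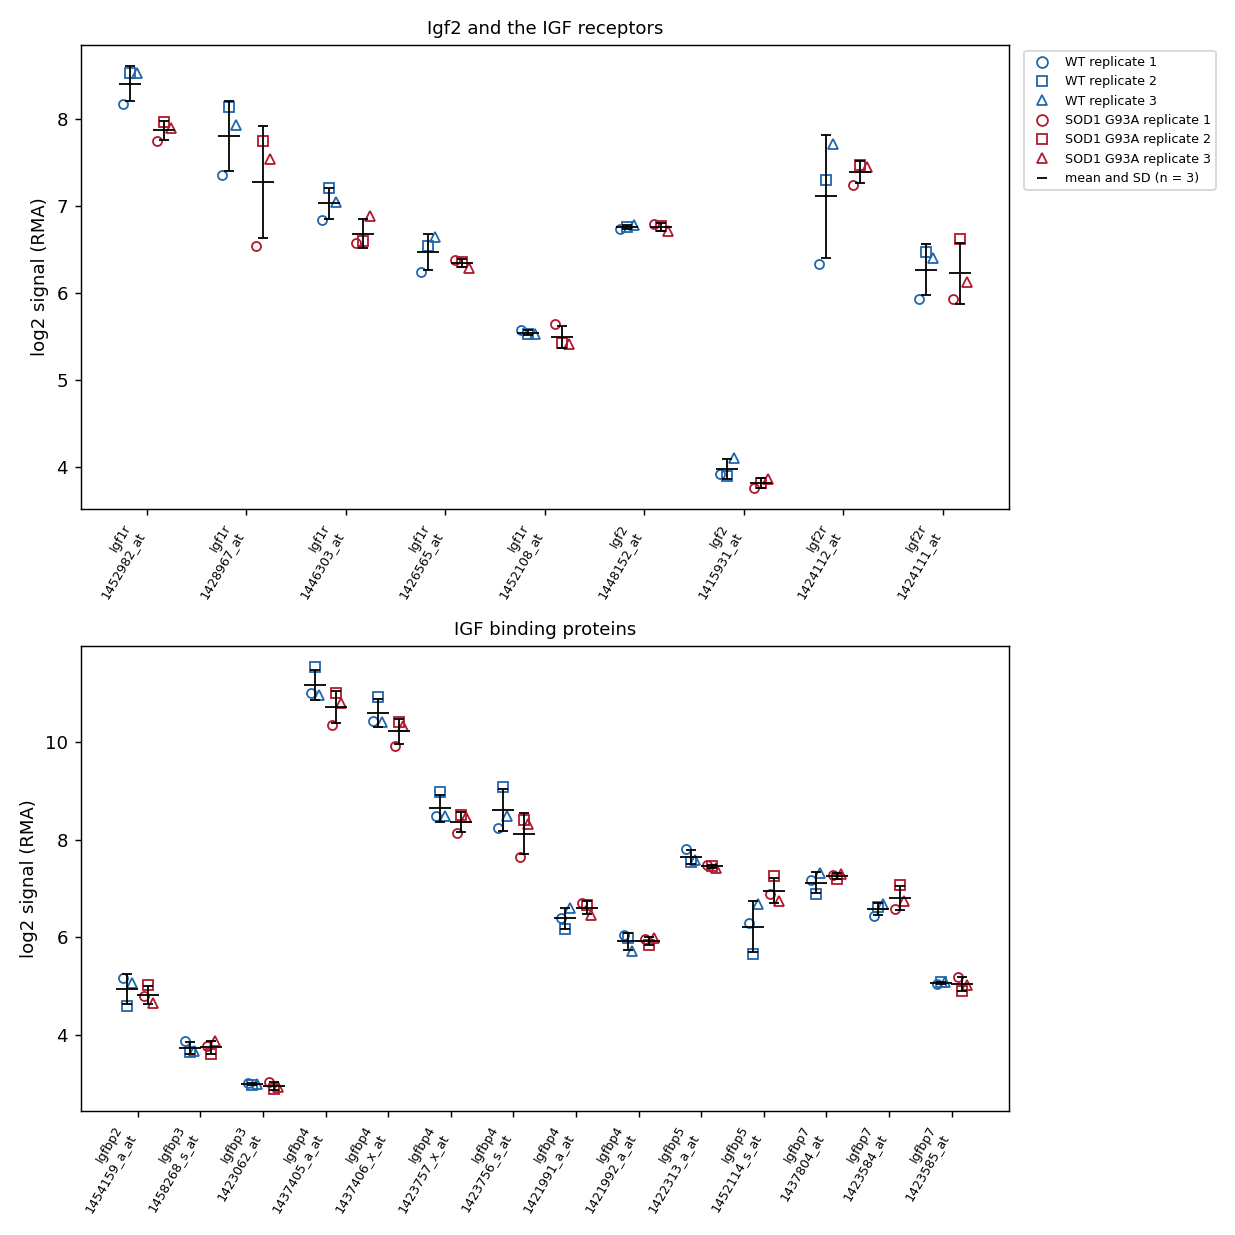
Log2 signal (vertical axis) on each array of the member probe sets other than Igf1, with points for SOD1 G93A and WT replicates and the mean and SD (n = 3) of each genotype. The points of both genotypes overlap for most probe sets, and none of the 23 passed the test over the array.

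The wider pathway was described by 64 genes in 12 roles, from insulin and its receptors to the kinases, phosphatases and transcription factors downstream of IGF-1R. Each gene was read by its probe set of highest mean signal, and 53 had one. Of these, 1 was higher and 3 were lower in SOD1 G93A microglia, and 49 did not pass. Over all 18193 genes read in this way, 3.53% were higher and 2.08% lower. The median log2 difference of the 53 genes was -0.04, and that of all genes was 0.02. The adjusted p of the 4 lay between 0.0194 and 0.0498, and none remained called in the fits without SOD1 G93A replicate 2, SOD1 G93A replicate 3, WT replicate 2 or WT replicate 3. Without WT replicate 1 the pathway count was 2.

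Socs2, a suppressor of growth hormone and cytokine signalling that acts as negative feedback, rose. Its probe set 1449109_at read 6.63, 7.18 and 7.06 in SOD1 G93A and 6.15, 5.79 and 6.12 in WT microglia, a log2 difference of 0.94 (standard error 0.17, adjusted p = 0.0194) or 1.91-fold. All SOD1 G93A arrays were above all WT arrays. A second Socs2 probe set, 1418507_s_at, also passed at 2.13-fold (adjusted p = 0.00808) with a mean signal below 5, and the other 4 did not pass.

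The insulin receptor gene Insr fell on 1 of its 3 probe sets. On 1434446_at the signals were 8.56, 8.87 and 8.66 in SOD1 G93A and 9.28, 9.14 and 9.21 in WT microglia (log2 difference -0.51, standard error 0.12, adjusted p = 0.0441). The other 2 Insr probe sets did not pass, with -0.09 for 1421380_at and 0.17 for 1450225_at, whose groups did not overlap in the opposite direction. Gab1, an adaptor that joins activated receptor kinases to PI3K, fell on 1 of 3 probe sets, with 8.40, 8.23 and 7.98 against 8.86, 8.71 and 8.76 (log2 difference -0.57, standard error 0.13, adjusted p = 0.0441). Rptor, which encodes the mTORC1 subunit Raptor, was lower on 1458472_at, at 8.97, 9.18 and 8.75 against 9.35, 9.91 and 9.95 (log2 difference -0.77, standard error 0.18, adjusted p = 0.0498). The genotypes did not overlap on any of the 3 probe sets that passed. The other 2 Gab1 probe sets differed by -0.23 and 0.04 and did not pass. The other 2 Rptor probe sets differed by 0.25 and 0.21, in the opposite direction, and did not pass.

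In the remaining roles the gene that differed most did not pass. The transcription factor Foxo3 differed by -0.45 (adjusted p = 0.063). The 5 genes of the FOXO and GSK3 role ran from -0.45 to -0.08, with a median of -0.30. None of them passed, and the role was not tested as a set. Htra1, a protease of the extracellular space, differed by -0.87 (adjusted p = 0.194), and Pik3r1, the regulatory subunit of PI3K, by -0.41 (adjusted p = 0.118). Igfbp1, near background, differed by 0.33 (adjusted p = 0.186). The growth hormone receptor gene Ghr differed by 0.28, the mRNA-binding protein gene Igf2bp1 by 0.22, the MEK1 gene Map2k1 by 0.20 and the SHP2 phosphatase gene Ptpn11 by -0.17. The gene list named 11 further genes that were not analysed here.

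**Figure D4:**
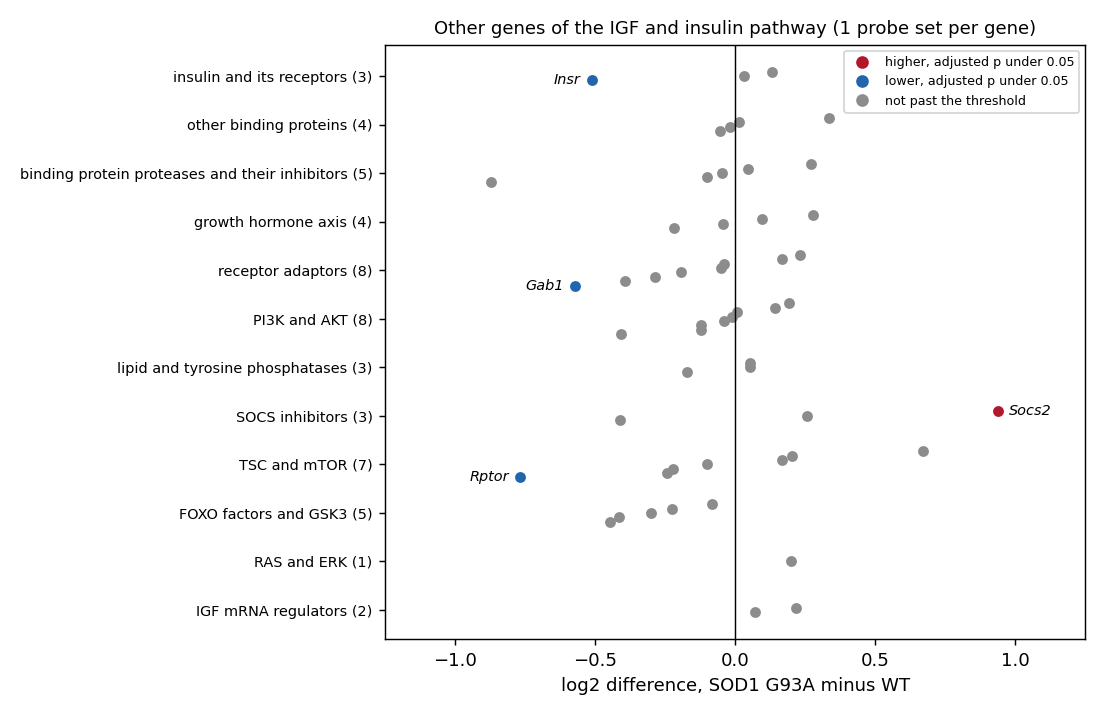
Log2 difference, SOD1 G93A minus WT (horizontal axis), of the 53 measured pathway genes by role, each read by its probe set of highest mean signal, with marks for the genes that passed. Socs2 lies at 0.94, while Insr, Gab1 and Rptor lie at -0.51, -0.57 and -0.77.

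The genes whose pattern over the 6 arrays was most like that of Igf1 1452014_a_at were sought among 7970 genes with a mean log2 signal of at least 7. The 5 highest Pearson correlations were those of Atp5c1 (0.998), Cd274 (0.998), Eif3l (0.998), Mak16 (0.997) and Rpn2 (0.997). Atp5c1 encodes a subunit of mitochondrial ATP synthase, Cd274 the immune checkpoint ligand PD-L1, and Eif3l a translation initiation factor. Mak16 is a ribosome biogenesis gene, and Rpn2 encodes a subunit of the oligosaccharyltransferase of the endoplasmic reticulum. Their log2 differences were 0.57, 1.0, 0.61, 0.36 and 0.98, and that of Mak16 did not pass the test (adjusted p = 0.0719). All 5 were smaller than the 3.66 of Igf1 1452014_a_at. The 6 arrays form 2 groups by genotype and the genes were read from the same hybridisations. These correlations therefore mainly describe a shared split by genotype, not a step of the same size, and carry no p. The order of the arrays within a genotype was not shared by all 5. Rpn2 read 9.84, 9.82 and 9.79 in SOD1 G93A replicates 1 to 3, while Igf1 1452014_a_at was lowest in replicate 1. On deviations from the genotype means, r with Igf1 ran from 0.73 (Rpn2) to 0.995 (Atp5c1) in these genes, which were picked for their r.

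The identity of the sorted cells was checked with markers of 9 cell types. Of the 9 microglial markers measured, 2 were higher (Trem2 by 1.28 and Fcrls by 1.07) and 0 lower, with a median log2 difference of -0.02. Their summed linear signal was 50480 to 55327 in SOD1 G93A and 46830 to 51262 in WT arrays. Such a sum is carried mostly by the markers of highest signal in its list, so it does not weigh all markers alike. Markers of other cells were also present. The summed signal of 7 neutrophil markers was 51684 to 73458 against 64375 to 103900 (0 called, median log2 difference -0.46). That of 7 monocyte markers was 6880 to 12593 against 12578 to 22214 (4 lower, median -1.04), and that of 8 border macrophage markers was 3404 to 5036 against 6401 to 7668 (1 higher and 3 lower, median -0.79). All 3 lists are of cells that can carry CD11b.

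Astrocyte markers summed to 1010 to 1720 in SOD1 G93A and 2215 to 4208 in WT arrays (3 of 8 lower, median -0.86). Oligodendrocyte markers summed to 9429 to 10491 against 15456 to 23028 (2 of 7 lower, median -0.36), with Olig2 below a log2 signal of 5. Neuronal markers summed to 369 to 462 against 776 to 892 (3 of 8 lower, median -0.61), with Nefm, Snap25, Tubb3 and Map2 below 5. The summed signals of these 3 lists and of the border macrophage list were lower in SOD1 G93A arrays without overlap. Each gave an exact permutation p of 0.1, the smallest possible. Those of the neutrophil and monocyte lists were lower on average but overlapped (exact permutation p = 0.3 and 0.2). Endothelial markers summed to 679 to 885 against 559 to 664 (1 of 8 higher, Flt1 by 0.87, median 0.20), with Tek and Emcn below 5. Mural and fibroblast markers summed to 825 to 929 against 809 to 1065 (1 of 8 higher, Cspg4 by 0.81, median 0.02). The part of cells other than microglia in the values of Igf1, Igfbp4, Igfbp5 and Igfbp7 was not tested. Nor was it tested for the pathway genes, such as Htra1.

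The difference between 3' and 5' probe sets, which grows as RNA shortens, varied between arrays. For Gapdh it was 4.12 ± 0.59 (SD, n = 3) in SOD1 G93A and 4.89 ± 0.11 (SD, n = 3) in WT arrays on the log2 scale, which is -0.77 for SOD1 G93A relative to WT (exact permutation test, two-sided, p = 0.1, the smallest possible with 3 arrays against 3). For Actb the values were 2.67 ± 0.72 and 3.42 ± 0.49 (exact permutation p = 0.2). With the Gapdh value of each array as a covariate, the Igf1 differences were 3.51 for 1452014_a_at, 2.70 for 1437401_at, 3.53 for 1419519_at and 3.12 for 1434413_at, and all 4 passed. In the same fit none of the 4 pathway genes passed. Array medians lay between 5.93 and 5.97, correlations between arrays between 0.980 and 0.995, and the second principal component, with 28.0% of the variance, set the arrays numbered 1 apart.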

How the data were processed

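RNA of CD11b-sorted lumbar microglia was measured on whole-genome Affymetrix mouse arrays. The authors deposited log2 signals per probe set, normalised by RMA in Partek according to the submitters' notes, which give no version. The methods of the study name MAS 5.0 and double-amplified RNA, while the labels describe the standard Affymetrix protocol. All 45037 probe sets other than 64 controls were fitted by genotype with limma 3.58.1 (lmFit and eBayes) in R 4.3.3, with Benjamini-Hochberg adjustment over all of them and calls at an adjusted p under 0.05. Of these, 34945 have 1 symbol, 932 several and 9160 none. An unequal-variance t-test, as the methods name it, was 1 of the alternatives. Replicates are pools of mice. The limma p-values set the genotype difference against the spread between pools, which eBayes moderates with that of all probe sets. The number of arrays sets the precision, since arrays give no read depth. The members, the pathway and marker lists and the tests were chosen with earlier results of these data known. Named genes were all members, pathway genes that passed or differed most in their role, the 5 genes most like Igf1, and up to 2 genes per marker list, with markers below a log2 signal of 5 named besides. Sequences are from RefSeq. The fit was tested on simulated data. Figures and promoter counts used Python 3.11.15, pandas 2.3.3 and matplotlib 3.10.9.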

Additional observations from a re-analysis of the deposited data

How the results depend on the processing

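Of 466 recomputed values of single member probe sets, 427 kept their direction and side of the threshold. Many of these could not change direction. Both forms of the t-test, trend and robust eBayes, the signal filters and the replicate block leave the difference itself unchanged. The same holds for 1 probe set per gene and for the fit without suffixed probe sets. In those settings only the side of the threshold could move. The Igf1 differences stayed between 2.70 and 3.75 and passed in every alternative other than the Benjamini-Hochberg form of the methods' t-test, with adjusted p from limma from 6.46e-07 to 0.0115. That t-test gave Igf1 an unadjusted p of 0.000647 to 0.00647 and an adjusted p of 0.201 to 0.278. After adjustment it called 0 member probe sets, 0 pathway genes and 0 of all probe sets. Unadjusted, with the fold threshold of the methods, it called 4 member probe sets (all of Igf1), 1 pathway gene and 795 probe sets. The member count of 4 of 27 became 7 with the replicate block, where Igf1r 1452982_at (adjusted p = 0.0159) and 1428967_at (0.0288) and Igfbp4 1423756_s_at (0.0465) were also called, all lower. With 1 probe set per gene it was 2 of 9, Igf1 higher and Igf1r lower. The pathway count of 4 became 1 with trend and robust eBayes, 2 with median-centred arrays, 2 without suffixed probe sets, 8 with the replicate block and 0 with the Gapdh covariate. The count of 2089 over all probe sets became 3549 with array weights, 4519 with the replicate block, 1342 with 1 probe set per gene, 1315 without suffixed probe sets, 129 with the Gapdh covariate and 3796 without both arrays numbered 1. Leaving out 1 array gave 4 to 5 members, 0 to 3 pathway genes and 479 to 2195 probe sets. The lowest counts over all probe sets were 585 without SOD1 G93A replicate 2, 479 without SOD1 G93A replicate 3, 655 without WT replicate 2 and 553 without WT replicate 3. The cause was not tested.

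Same-numbered arrays correlated at 0.44, 0.24 and 0.029 in their deviations from the genotype means, so the replicate number was not taken as a pairing, although the methods describe matching by litter without tying it to these numbers, and not every array correlated best with its own number. No called value reversed. With the Gapdh covariate the sign turned for Igf1r 1452108_at (0.081), Igfbp2 (0.075), Igfbp3 1458268_s_at (-0.051) and 1423062_at (0.016), Igfbp4 1421992_a_at (-0.013) and Igfbp7 1423585_at (0.029). Without both arrays numbered 1 it turned for Igf2 1448152_at (-0.028), Igf2r 1424112_at (-0.043) and Igfbp2 (0.013), and with array weights for Igf2 1448152_at (-0.0064) and Igf2r 1424111_at (0.021). Leaving out 1 array gave -0.015 to 0.027 for Igf2 1448152_at, -0.11 to 0.57 for Igf2r 1424112_at, -0.24 to 0.10 for Igf2r 1424111_at, -0.043 to 0.092 for Igfbp3 1458268_s_at, -0.087 to 0.077 for Igfbp4 1421992_a_at and -0.11 to 0.034 for Igfbp7 1423585_at. Signal near background limits Igfbp2, Igfbp3 and Igf2 1415931_at. Whether other members with signals near the array medians, such as Igf1 in WT microglia, lay above background was not tested.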

Other observations

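Probe sets of neighbouring transcripts stood outside the 27. The antisense transcript Igf1os differed by 0.01 on the log2 scale (adjusted p = 0.988 from limma) and Igf2os by 0.12 (adjusted p = 0.670). A probe set assigned to both Airn, the antisense transcript of the Igf2r locus, and Igf2r differed by 0.17 (adjusted p = 0.525). A further probe set of Pik3ca, the catalytic subunit of PI3K, named here after its values were seen, was lower in SOD1 G93A microglia (log2 difference -0.70, adjusted p = 0.0216), while the probe set of highest signal differed by -0.12 (adjusted p = 0.632).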
